A study of Gasterosteus aculeatus with 242 samples.

Results

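In the brains of juvenile threespine sticklebacks, 74 genes were expressed at a moderately higher level in females than in males. They were chosen from the measured sex difference itself. Their mean level was at least 5 CPM, the count of a gene scaled to its library's total (counts per 1000000), the log2 of the male mean over the female mean lay above -0.8 and at most -0.25, and the female mean was above the male mean in at least 14 of the 16 families. The deposited table held 22456 gene identifiers, of which 20626 had at least 1 count and 8549 reached a mean of 5 CPM. A further 28 genes in the same range of the log2 ratio were left out because fewer than 14 families had the higher female mean.

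Threespine sticklebacks have an XY system, in which females carry a pair of X chromosomes and males an X and a Y. The Y has lost many genes that the X kept, so that males hold fewer copies of them, and the term dosage compensation describes any adjustment of transcript levels that makes up for this. Sex differences in brain RNA can also accompany sex hormones or a different make-up of cell types. The deposited files give identifiers without gene symbols or chromosomes, and the gene table available here held none of these identifiers. For this reason no gene name, role, chromosome or sequence is given for any of the 74 genes. The label of the tissue as brain could not be checked against marker genes either. Whether any of these processes took part in the sex differences was not tested.

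The data were 3′ tag sequencing counts, in which a read marks a transcript end and the count does not grow with gene length, from 242 fish between 6 and 8 months old, before sexual maturity. Families in a half-sib design were either raised by their wild-caught father from Putah Creek (labelled Day 10) or hand-reared without him (labelled Day 0), with 8 families in each rearing group. Open-field fish explored a pool for 10 minutes, met a moved model of a sculpin, a predatory fish, and gave their brains 60 minutes after that attack, whereas baseline fish were full siblings taken from the home tank. Sex came from a DNA marker, and RNA from the left or the right part of the brain. All but 1 of the libraries had usable depth. These fish comprised 26 females and 31 males of the father-reared baseline group, 35 and 26 of the father-reared open-field group, 25 and 39 of the hand-reared baseline group, and 32 and 27 of the hand-reared open-field group. Their libraries held 706544 to 1529047 counts, with a median of 1017820.5 in females and 1000618 in males. SDs given for all females or all males are over these fish. A single hand-reared open-field male with 2055 counts was left out of all values per fish. Plates were read from the first digit of the library name, as the labels do not define them. They held 41 females and 49 males, 43 and 48, and 34 and 26. In such tissue samples, fewer cells of a type and less RNA per cell cannot be told apart.

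The male mean of the 74 genes was 57.5% to 83.9% of the female mean, with a median of 69.9%. Put the other way, the female mean was 1.19 to 1.74 times the male mean. These values follow from the rule and are a description. Over this range the 74 genes were spread fairly evenly, which owes in part to the rule on families. It kept 9 of 20 genes with log2 ratios between -0.3 and -0.25, and 12 of 12 between -0.8 and -0.75. Of the 74 genes, 28 had a log2 ratio between -0.8 and -0.6, 22 between -0.6 and -0.4, and 24 between -0.4 and -0.25. Below the range, 190 further genes with the female mean higher in at least 14 families had ratios from -1.18 to -0.80. In the mirrored ranges, with males higher in at least 14 families, there were 13, 22 and 87 genes. Genes higher in females were thus the more numerous between 0.6 and 0.8 on either side, and genes higher in males between 0.25 and 0.4.

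**Figure D1:**
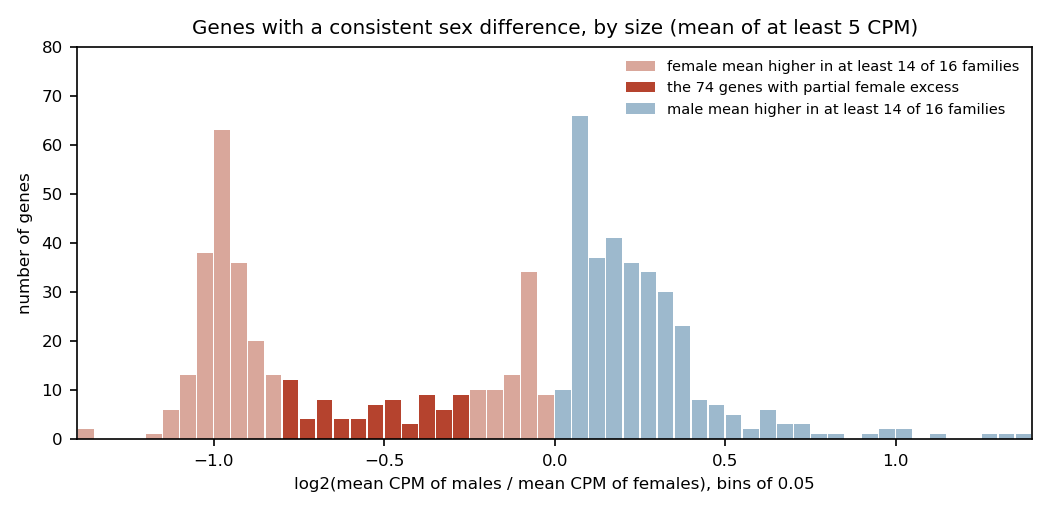
Number of genes by the log2 ratio of the male mean to the female mean CPM, in bins of 0.05, for genes with a mean of at least 5 CPM whose sex difference had the same direction in at least 14 of 16 families. The dark bars are the 74 genes described here, between the genes with larger female excess on their left and those with smaller female excess on their right.

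The bounds of the rule fell among genes of similar ratios. Just inside the lower bound was ENSGACG00000006110, with a log2 ratio of -0.80 from 161.1 CPM in females and 92.7 CPM in males. Just outside it was ENSGACG00000005915, with 7.91 and 4.53 CPM. Just inside the upper bound was ENSGACG00000013812, with a log2 ratio of -0.25 from 17.5 and 14.7 CPM. Just outside was ENSGACG00000004409, with a log2 ratio of -0.24 from 175.1 and 148.5 CPM. By mean level, ENSGACG00000013927 was just inside at 5.03 CPM and ENSGACG00000011160 just outside at 4.75 CPM.

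The 74 genes spanned a wide range of levels. The mean CPM ran from 5.03 to 802.1 with a median of 26.6. A total of 16 genes had a mean of at least 100 CPM and 15 a mean under 10 CPM. The female mean was the higher one in all 16 families for 43 genes, in 15 families for 21 and in 14 families for 10. A filter on low counts, needed for the tests below, kept 68 of the 74 genes, and the other 6 had mean levels of at most 6.66 CPM.

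Single fish separated by sex to very different degrees. For each gene, the share of all pairs of a female and a male in which the female was higher was computed. Its median over the 74 genes was 78.7%. The share was at least 95% for 8 genes and under 75% for 26, and none of the 74 had sexes that did not overlap. In the 190 genes with a larger female excess the median was 96.1% and the highest share 100%. These shares are a description, since both sets were chosen by the sex difference in the same fish. They were not computed over all genes, so nothing particular to the 74 genes is read from these counts. Among the 74 genes, ENSGACG00000009867 separated the sexes best, with the female higher in 99.93% of pairs. Its level ran from 131.7 to 209.1 CPM in females (median 163.8, mean 164.4 ± 16.5, SD) and from 71.5 to 135.9 CPM in males (median 108.6, mean 108.4 ± 12.8, SD). The sexes overlapped in 7 fish. In its 8 groups of rearing, exposure and sex the female means lay between 161.8 and 167.98 CPM and the male means between 107.1 and 109.4 CPM.

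The next best was ENSGACG00000004004, with 99.9% of pairs. Females ran from 253.0 to 490.9 CPM (mean 352.1 ± 42.1, SD) and males from 132.6 to 289.4 CPM (mean 205.6 ± 27.5, SD), with 10 fish in the overlap. ENSGACG00000006110 had the largest female excess of the 74 genes. Its log2 ratio fell beyond the lower bound with TMM-scaled CPM (-0.805) and in plates 1 and 3 alone (-0.83 in each). Its females ran from 83.8 to 261.2 CPM (mean 161.1 ± 31.3, SD) and its males from 51.4 to 171.2 CPM (mean 92.7 ± 23.7, SD), so that the sexes overlapped over much of their range although 95.9% of pairs had the female higher. The second largest excess was that of ENSGACG00000003748, a gene of low level, with 8.03 ± 3.97 CPM in females and 4.63 ± 2.53 CPM in males (SD). Its log2 ratio was -0.80 over all fish, and -0.97, -0.51 and -1.14 in plates 1, 2 and 3 alone. In plates 1 and 3 it thus lay beyond the lower bound of -0.8.

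At the other end, ENSGACG00000010827 and ENSGACG00000013812 had the smallest female excess. The former was among the most abundant, at 658.1 to 983.4 CPM in females (mean 840.3 ± 65.8, SD) and 575.1 to 847.4 CPM in males (mean 704.3 ± 53.8, SD). With this small difference and a small spread, the female was higher in 94.3% of pairs. ENSGACG00000013812 had 17.5 ± 4.90 CPM in females and 14.7 ± 4.60 CPM in males (SD), a difference smaller than the SD within a sex. The other most abundant gene was ENSGACG00000002525, with 906.2 ± 243.5 CPM in females and 702.2 ± 197.3 CPM in males (SD) and a log2 ratio of -0.37.

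The sexes overlapped most in ENSGACG00000002294, where the female was higher in 61.4% of pairs, with 22.8 ± 10.3 CPM in females and 18.6 ± 9.48 CPM in males (SD). ENSGACG00000012114 followed with 63.6% of pairs, at 8.46 ± 3.67 and 6.84 ± 2.86 CPM (SD), and its log2 ratio was -0.31 over all fish and -0.17 in plate 3 alone. In both genes the SD within a sex was larger than the difference between the sexes.

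**Figure D2:**
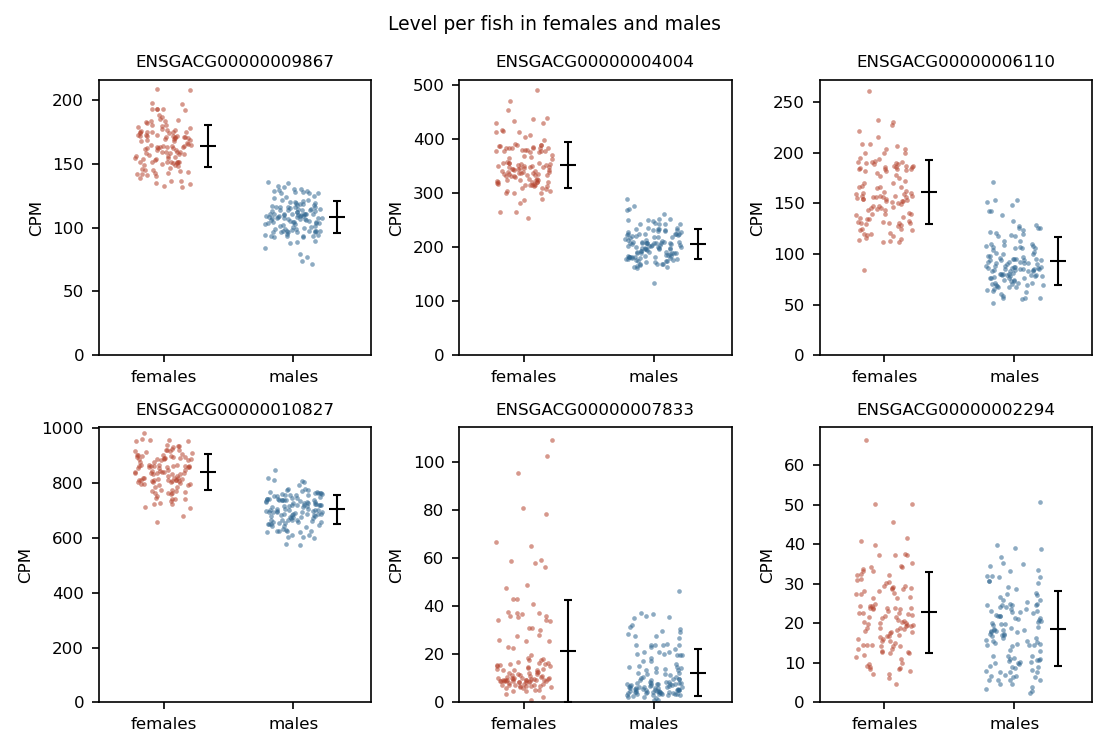
CPM in every fish by sex for 6 of the 74 genes, with all females and males of usable depth in each panel, each point a fish and the bar the mean with its SD. ENSGACG00000009867 and ENSGACG00000004004 separated the sexes almost fully, whereas females and males of ENSGACG00000002294 overlapped over nearly their whole range.

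The ratios of the single families are given as a description, since the rule used their direction in these 16 families and the ratio over all fish. Of 1184 ratios (74 genes in 16 families), 788 lay in the range of the rule, 17.1% at or below -0.8 and 16.3% above -0.25. A total of 41 were above 0, where the rule allows at most 2 a gene. In the 25 genes with a mean of at least 50 CPM, 313 of 400 ratios lay in the range, 40 at or below -0.8 and 47 above -0.25. For 7 genes all 16 families lay in the range, among them ENSGACG00000009867, whose families ran from -0.72 to -0.39. In ENSGACG00000010827 they ran from -0.34 to -0.19, with 10 families in the range and 6 above -0.25. The SD of the log2 ratio over families had a median of 0.23 and was lowest, at 0.039, in ENSGACG00000010827.

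This spread over families was set beside the error that the spread among siblings of 1 family and sex gives. The median quotient of the family SD over that error was 1.07. It was at most 1.2 in 54 genes and above 1.5 in 10. The rule kept only genes with 1 direction in at least 14 families, which favours a low spread over families, so nothing is read from these quotients. Family medians of the log2 ratio over the 74 genes ran from -0.58 in family 11 to -0.43 in family 40, and 69 to 74 genes were higher in females in each family.

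**Figure D3:**
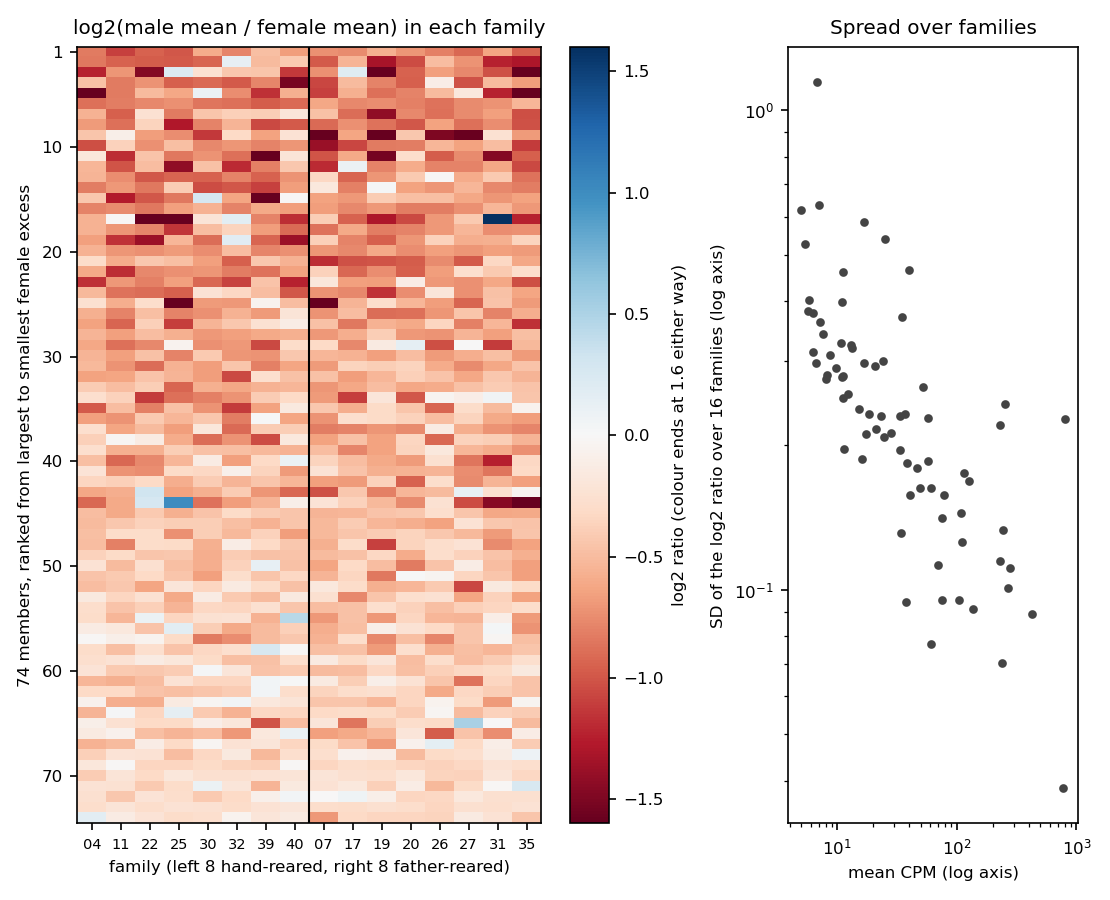
Left, log2 ratio of male to female mean CPM for each of the 74 genes (rows) in each of the 16 families (columns, 8 hand-reared and 8 father-reared), red for a female excess. Right, SD of that ratio over families against the mean CPM, both on log axes; the lowest SD, 0.039, belongs to ENSGACG00000010827, and genes of low level have the larger SDs.

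The ratios within subsets of the same fish are likewise a description of genes chosen for a female excess in them. All 74 genes were higher in females in each of the 3 plates, in both exposures, in both rearing groups and on both brain sides, and 46 genes had a ratio within the range in each plate. The median log2 ratio was -0.53, -0.52 and -0.52 in the 3 plates, -0.53 on the left and -0.52 on the right, -0.51 at baseline and -0.50 in the open field, and -0.53 in father-reared and -0.49 in hand-reared families. When medians over fish replaced means, 61 genes were in the range, 10 lay at or below -0.8 and 3 above -0.25. In the fit across all genes tested, 13.7% were called for sex and 5.15% were called as higher in females, with all 68 tested members among the latter. As the rule used this contrast, nothing is read from that count.

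Whether the size of the female excess differed between the study's conditions was tested with interaction terms, which the rule did not use directly. The rule did limit the sex by rearing term, since it left out genes whose excess was absent or turned in the families of 1 rearing group. A gene was called at a Benjamini-Hochberg adjusted p under 0.05 over all 7682 genes tested with edgeR's quasi-likelihood test. For the interaction of sex with exposure 0 of the 68 genes were called, beside 0% of all genes, and 4 of the 68 had an unadjusted p under 0.05, beside 5.04% of all genes. For sex by rearing 0 of 68 were called, beside 0% of all genes, and 7 (10.3%) had an unadjusted p under 0.05, beside 7.39% of all. For sex by brain side 0 of 68 were called, beside 0%, and 1 had an unadjusted p under 0.05, beside 5.12%. DESeq2 also called 0 of the 68 in each of these 3 comparisons.

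ENSGACG00000002525 had the smallest p for both sex by exposure and sex by rearing. Its females ran from 473.0 to 1470.6 CPM at baseline (median 889.2, mean 863.5 ± 242.8, SD, n = 51) and from 467.4 to 1642.5 CPM in the open field (median 922.0, mean 938.7 ± 240.8, SD, n = 67). Its males ran from 413.2 to 1224.0 CPM at baseline (median 695.0, mean 719.2 ± 179.7, SD, n = 70) and from 316.0 to 1291.3 CPM in the open field (median 610.6, mean 679.7 ± 218.1, SD, n = 53). The 4 groups overlapped broadly. The female excess was larger in the open field by 0.21 (log2, SE 0.09), with an edgeR adjusted p of 0.93, and larger in father-reared families by 0.24 (SE 0.09), with an edgeR adjusted p of 0.63. With single fish and a family block in place of family sums, the latter was 0.15. For sex by side the smallest p was that of ENSGACG00000006110, with a female excess larger on the right by 0.15 (SE 0.07) and an edgeR adjusted p of 0.96. Without the family block this difference was 0.028, and the log2 ratio of males to females was -0.78 on the left and -0.82 on the right. The median SE of these interaction terms over the 68 genes was 0.098, 0.11 and 0.099. Changes in the female excess of about that size were not detectable at this depth and number of fish. Changes well above these SEs could be missed too, as the difference of 0.24 with an SE of 0.09 was not called.

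The exposure to the open field and the model predator was compared with baseline over all fish in a model with terms for family, sex, side and plate. Of the 68 genes, 1 was called, beside 0.625% of all genes tested. It was ENSGACG00000006701, which rose in the open field. Females ran from 79.7 to 146.6 CPM at baseline (median 112.1, mean 112.5 ± 15.4, SD, n = 51) and from 96.9 to 160.02 CPM in the open field (median 127.04, mean 127.4 ± 16.2, SD, n = 67). Males ran from 63.3 to 129.6 CPM at baseline (median 90.4, mean 91.3 ± 14.4, SD, n = 70) and from 67.1 to 137.2 CPM in the open field (median 98.1, mean 99.8 ± 15.2, SD, n = 53). The groups overlapped, and both sexes had the higher mean in the open field.

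The log2 fold change of ENSGACG00000006701 was 0.16 (SE 0.02), with an edgeR adjusted p of 5.6e-07. The open-field mean was above the baseline mean in 16 of 16 families, in 15 of 16 among females alone and in 14 of 16 among males alone. With fewer fish the direction was the same but the call was not made in plate 1 alone (0.15, edgeR adjusted p = 0.30), in plate 2 alone (0.12, edgeR adjusted p = 0.42) or in males alone (0.13, edgeR adjusted p = 0.21). It was made in plate 3 alone (0.22, edgeR adjusted p = 0.010) and in females alone (0.17, edgeR adjusted p = 0.00064). The other 67 genes tested did not pass. Over the 68 genes the log2 fold change had a median of 0.017 and ran from -0.24 to 0.27, and 40 of 68 were above 0, beside 49.8% of all genes tested.

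Rearing was applied to whole families, so 8 family sums were compared with 8, and each sum's share of males entered the model. Of the 68 genes 0 were called, beside 0% of all genes tested, and 2 had an unadjusted p under 0.05, beside 5.79% of all genes. DESeq2 called 0 of the 68, beside 0.156% of all genes tested. The smallest edgeR p among the 68 was that of ENSGACG00000010689. It ran from 1.09 to 63.02 CPM in father-reared fish (median 13.1, mean 15.05 ± 9.04, SD) and from 1.73 to 29.2 CPM in hand-reared fish (median 10.5, mean 11.0 ± 5.49, SD). The groups overlapped broadly, and the log2 fold change of father-reared over hand-reared families was 0.39 (SE 0.14), with an edgeR adjusted p of 0.82. Over its alternatives it ran from 0.25 in males alone to 0.55 in females alone.

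The response to exposure was compared between rearing groups on sums per family and exposure. Of the 68 genes 0 were called, beside 0% of all genes tested, while 7 of the 68 (10.3%) had an unadjusted p under 0.05, beside 3.24% of all genes. DESeq2 called 0 of the 68 and gave 2 with an unadjusted p under 0.05. The smallest p was that of ENSGACG00000003124. Its mean level in father-reared females was 68.3 ± 26.0 CPM at baseline and 65.6 ± 26.4 CPM in the open field (SD, n = 26 and 35), and in hand-reared females 61.8 ± 15.2 and 71.6 ± 22.5 CPM (SD, n = 25 and 32). In father-reared males it was 47.6 ± 22.4 and 44.6 ± 21.02 CPM (SD, n = 31 and 26), and in hand-reared males 46.04 ± 15.3 and 53.7 ± 21.6 CPM (SD, n = 39 and 27). Within each sex, the means fell within the SDs of each other. These SDs are over fish, whereas the test used family sums. The difference between the responses was -0.19 (log2, SE 0.07), with an edgeR adjusted p of 0.99961.

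**Figure D4:**
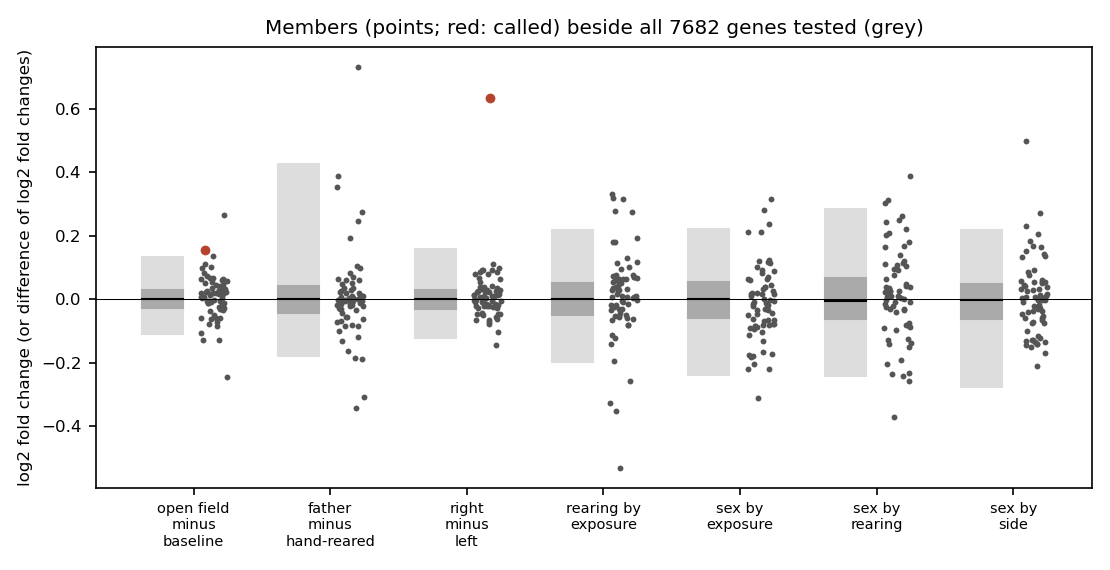
Log2 fold change, or difference of log2 fold changes for the 4 interactions, of the 68 tested genes (points) in each comparison. Grey boxes show the spread of all 7682 genes tested with their median as a line. The red points are the 2 calls, ENSGACG00000006701 for exposure at 0.16 and ENSGACG00000007833 for brain side at 0.63.

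Right and left brain parts were compared in the same way. Of the 68 genes, 1 was called, beside 0.156% of all genes tested. This gene, ENSGACG00000007833, was higher on the right. In females it ran from 1.03 to 58.97 CPM on the left (median 10.3, mean 14.4 ± 11.98, SD, n = 58) and from 4.78 to 109.2 CPM on the right (median 17.3, mean 28.4 ± 25.5, SD, n = 60). In males it ran from 1.07 to 37.1 CPM on the left (median 6.63, mean 11.2 ± 9.89, SD, n = 61) and from 1.05 to 46.3 CPM on the right (median 10.9, mean 13.6 ± 9.78, SD, n = 62). The sides overlapped in both sexes, and the highest levels were those of females sampled on the right.

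The log2 fold change of ENSGACG00000007833 for right over left was 0.63 (SE 0.14), with an edgeR adjusted p of 0.012. The right mean was above the left mean in 14 of 16 families, in 12 of 16 among females alone and in 11 of 16 among males alone. It was one of the most variable of the 74 genes, with a coefficient of variation, less counting noise, of 95.9% in females and 74.3% in males. Its log2 ratio of males to females was -0.36 on the left, within the range of the rule, and -1.06 on the right, outside it. The ratio was -0.28 in plate 2 alone, and -1.04 and -1.10 in plates 1 and 3, both outside the range. Females alone gave a log2 fold change of 0.93 (edgeR adjusted p = 0.15) and males alone 0.44 (edgeR adjusted p = 0.50). The difference between the sexes was 0.50 (SE 0.29), with an edgeR adjusted p of 0.99.

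Differences among families, with rearing among them, were called in 39 of the 68 genes (57.4%), beside 62.9% of all genes tested, and so were about as frequent as in the rest of the table. ENSGACG00000001750 had the largest F value (52.3, edgeR adjusted p = 6.2e-62). Its family means ran from 99.3 CPM in family 39 to 406.2 CPM in family 26 in females, and from 69.8 CPM in family 39 to 327.1 CPM in family 31 in males. The same 5 families, 07, 22, 25, 35 and 39, were lowest in both sexes. Next was ENSGACG00000005950 (F = 21.4, edgeR adjusted p = 9.0e-34), where family 31 stood at 38.9 CPM in females and 29.2 CPM in males. Females of family 35 followed with 22.2 CPM. In both genes the level among families differed by more than the sexes did within a family. ENSGACG00000009867 and ENSGACG00000004004, which separated the sexes best, were not called for family (edgeR adjusted p = 0.19 and 0.12). Genes picked for little overlap between the sexes have a small spread within a sex, so nothing is read from this.

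**Figure D5:**
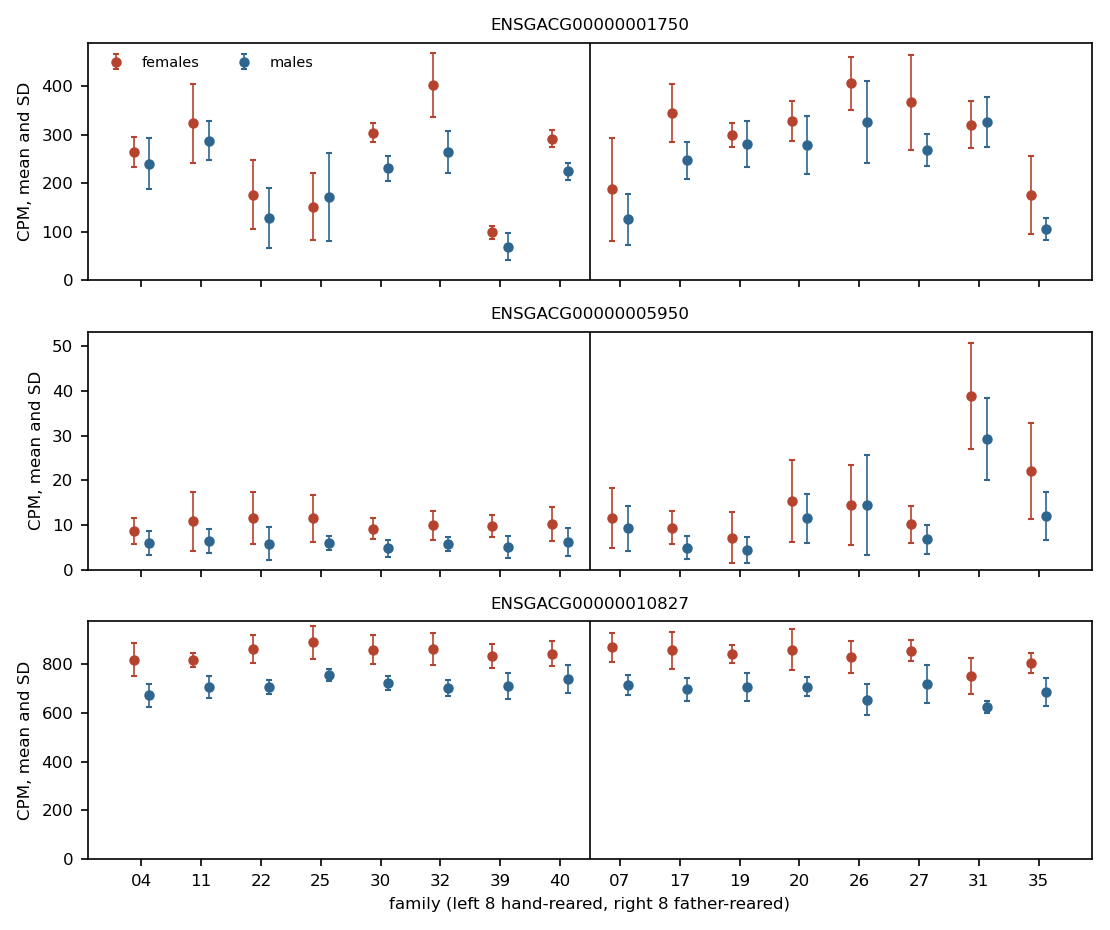
Mean CPM with its SD by family and sex for ENSGACG00000001750, ENSGACG00000005950 and ENSGACG00000010827, the first 8 families hand-reared and the last 8 father-reared. Levels of the upper pair of genes differ widely among families in both sexes, with family 31 highest for ENSGACG00000005950, whereas ENSGACG00000010827 keeps a narrow female excess in every family.

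The level of many of the genes also differed among the 3 plates, as read from the library names. Of the 68 genes, 32 were called (47.1%), beside 63.4% of all genes tested. ENSGACG00000010861 fell from plate to plate in both sexes, at 57.998, 46.7 and 34.3 CPM in females and 36.2, 29.1 and 22.4 CPM in males for plates 1, 2 and 3 (F = 98.4, edgeR adjusted p = 1.6e-29). ENSGACG00000001750 went the other way, at 215.1, 236.3 and 338.2 CPM in all fish (F = 75.8, edgeR adjusted p = 2.9e-24). In ENSGACG00000010861 the female mean was the higher one within every plate.

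Within a sex, the 74 genes varied about as much as other genes. The coefficient of variation, less counting noise, had a median of 18.7% in females and 20.4% in males, against 17.6% and 18.3% over all genes with a mean of at least 5 CPM. It was 14.7% and 17.7% in the 190 genes with a larger female excess. In the genes higher in males by the mirrored rule it was 50.2% and 53.7%. These are descriptions, since all 3 sets were chosen by the sex difference in the same fish. The coefficient was larger in males than in females for 49 of the 74 genes (66.2%), beside 56.5% of all genes with a mean of at least 5 CPM.

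Across fish, pairs of the 74 genes were correlated about as weakly as pairs of other genes. After removal of sex, family, exposure, side and plate from the log2 levels of the fish, the median correlation over their 2701 pairs was 0.0081, and 3.89% of pairs had an absolute r above 0.2. Over all pairs of genes with a mean of at least 5 CPM, the median was 0.0086 and the share 3.56%. Fish share plates and sequencing depth, and genes are not independent replicates. The closest pair was ENSGACG00000013820 and ENSGACG00000006202, with a Pearson r of 0.44 and a Spearman rho of 0.35 over all fish of usable depth. Both had a permutation p of 1e-05, the smallest that 100000 permutations can give, and adjusted values over all pairs of 0.0016 and 0.0019. Without the 2 fish farthest from the median of ENSGACG00000013820, r was 0.40.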

How the data were processed

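The authors deposited whole-number counts per gene identifier, library and lane (1452 columns, 6 lanes). Tools named in the submitters' processing notes are STAR 2.2.3a, HTSeq 0.9.1 and FastQC 0.11.8. Not given in the sources used here are the build, annotation, strand setting and duplicate handling, so counts of near-identical, overlapping or antisense genes are uncertain. Lanes were summed per fish. CPM was computed from library totals in the fish with at least 500000 counts, and family was read from the leading number of the fish code. Fish are separate animals, and shared parents of half-sib families were not modelled.

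Tests used edgeR 4.0.16 (quasi-likelihood, TMM, R 4.3.3) on counts of all 242 fish, after filterByExpr with a minimum count of 10, or on family sums where rearing was involved. DESeq2 1.42.0, RLE scaling, no filter, the shallow library left out, single plates and single sexes were alternatives. The fits for exposure, sex by exposure and rearing were tried on simulated counts without family or plate differences. The 74 genes, tests and rules were chosen with earlier results of these data known. Genes were named by fixed ranks: the 2 largest and 2 smallest female excesses, the neighbours of each bound, the 2 most abundant, the 2 pairs of extreme overlap between sexes, the most extreme called or smallest-p gene per comparison, the 2 largest F values for family and the closest pair. The plate genes, the family tests of ENSGACG00000009867 and ENSGACG00000004004 and the genes drawn in figures were chosen after their values were seen. Lists of marker, hormone, neuropeptide, immediate early and housekeeping genes needed symbols and were not used.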

Additional observations from a re-analysis of the deposited data

Results flagged for a closer look

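Each named gene's 8 family values per rearing group were examined for a family far from the others by Dixon's criterion. Of 110 such sets 10 stood out, where chance would give about 5.5 for independent sets. These sets were not independent, and some of the genes were chosen by their family values. No excess over chance is read from these counts.

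Family 35 was the highest father-reared family for ENSGACG00000003124 in both sexes, with mean levels of 114.3 CPM in females (next family 68.5) and 91.3 CPM in males (next family 46.6). Family 31 was the highest father-reared family for ENSGACG00000005950 in both sexes, at 38.9 CPM in females (next 22.2) and 29.2 CPM in males (next 14.4). For these genes females and males of the same family deviated in the same direction.

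Family 07 was the highest father-reared family among females for ENSGACG00000006202 at 344.0 CPM (next 296.1) and for ENSGACG00000013812 at 21.1 CPM (next 18.6). Among males, father-reared family 27 was highest for ENSGACG00000013812 at 16.5 CPM (next 14.6), and hand-reared family 11 was lowest for ENSGACG00000002525 at 628.6 CPM (next 722.1). The log2 ratio of males to females was lowest in hand-reared family 25 for ENSGACG00000006202, at -0.93 (next -0.61), and in hand-reared family 39 for ENSGACG00000012114, at -1.005 (next -0.49).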

How the results depend on the processing

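The number of genes that met the rule was 74 as described. It was 43 when all 16 families had to have the higher female mean and 46 when the ratio had to be in range in each plate. It was 70 with TMM-scaled CPM, 69 of them shared with the 74, and 71 with the shallow library kept, 67 of them shared. It was 68 with the mean of family ratios, 67 of them shared, and 71 with geometric means, 68 of them shared. It was 88 with 12 families and 59 with a minimum mean of 10 CPM, while a minimum of 1 CPM added genes. Medians over fish, an alternative added after the data were seen, were counted among the 74 genes only. Of these, 61 stayed in the range, so this number cannot be set beside the others.

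The single call for exposure became 0 calls in plate 1 alone, 0 in plate 2 alone and 0 in males alone. The single call for brain side became 0 calls in females alone and 0 in males alone, splits added after the data were seen. Calls for family ran from 27 to 40 and for plate from 30 to 35 over their alternatives. The shares of all genes tested ran from 31.6% to 62.8% for family and from 33.7% to 64.5% for plate. Both were lowest without the filter on low counts, where all 74 genes were tested. For plate, 26 of 30 calls with DESeq2 or RLE scaling, and 28 of 35 without the filter, were among the 32 reported. No value changed direction among those compared. Among the log2 ratios of the named genes, 1 moved by more than that gene's SD over families. It was that of ENSGACG00000009867, from -0.60 to -0.69 in plate 3 alone. This measure lets variable genes move far. ENSGACG00000007833 went from -0.79 to -0.28 in plate 2 alone, within its SD of 0.58. ENSGACG00000003748 went from -0.80 to -1.14 in plate 3 alone, within its SD of 0.38.

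With family and fish number together as a replicate block, exposure gave 1 call among the 68 genes and 50 of 7682 in all. A shared number gave no sign of pairing in the data: the median correlation of their deviations was -0.049, against -0.066 over 795 other sibling pairs, and 1 same-numbered pair was above 0.1. Libraries of 706544 to 1529047 counts leave genes near 5 CPM with few counts per fish, and the filter on low counts left 6 of the 74 untested.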
